A study of Mus musculus with 2 samples.

Results

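Chemokine ligands are small secreted proteins that direct the movement of leukocytes, and the fetal lung cells measured here were searched for all of them. Members were taken by gene symbol, as every gene row whose name begins with Ccl, Cxcl, Xcl or Cx3cl followed by a digit. The rule found 44 of the 32285 gene rows, which hold 38 symbols because 5 symbols stand on more than 1 row. Of the 44 rows, 30 had at least 10 unique molecular identifiers (UMIs, each counting 1 captured transcript) over all cells assigned to a litter and are called detected, 3 had 1 to 9 UMIs and 11 had none. The rule uses symbols alone and no expression values, though it was chosen with earlier results of these data known.

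Chemokines bind G-protein-coupled receptors on the cells that they attract. The CC ligands mainly draw monocytes, eosinophils, basophils and lymphocytes, the CXC ligands with an ELR motif (Cxcl1, Cxcl2, Cxcl3, Cxcl5 and Cxcl15 in the mouse) draw neutrophils, and homeostatic ligands such as Cxcl12 and Ccl21a guide cells to their places in tissues. In the lung they are made both by resident structural cells and by leukocytes, and many are induced within minutes to hours of a stimulus through NF-kB.

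Pregnant wild-type C57BL/6J mice of 9 weeks drank water that held dexamethasone (DEX, a synthetic glucocorticoid) at 1.3 µg/ml, or phosphate-buffered saline (PBS) as the control. Treatment began on gestation day 12, and fetal lungs were taken on day 18. Each group has 2 litters, each litter being the pooled lungs of the fetuses of 1 mother. DEX-1 had 8 fetuses and DEX-2 had 9, whereas PBS-1 had 5 and PBS-2 had 8, 30 in all. Lungs of all 4 litters were digested for 40 min and sorted as live CD45+ lineage-negative ST2+ cells, which the labels call ILC2s (group 2 innate lymphoid cells, the tissue lymphocytes of type 2 immunity). The litters were marked with hashtag antibodies and loaded together for 5′ single-cell RNA sequencing. The replicate is the litter, so each group has n = 2. DEX was given to the mother, and its maternal and direct fetal actions cannot be told apart.

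Of 10648 barcodes, 10409 passed the filters on genes and mitochondrial reads, and 7268 carried 1 hashtag (1737 and 1888 of the DEX litters, 1753 and 1890 of the PBS litters). These cells had a median of 8025.5 UMIs, and the litter totals ran from 18665955 to 23660294 UMIs. Markers showed that the labelled ILC2s were a minority. There were 2309 mast-like cells, 1343 ILC2-like, 482 basophil-like, 457 epithelial-like, 231 endothelial-like, 227 macrophage or monocyte-like, 215 mesenchymal-like, 199 B-like, 31 neutrophil-like and 6 mesothelial-like cells. The lineage antibodies include markers of B and myeloid cells, and epithelial, endothelial and mesenchymal cells lack CD45, so these classes lie outside the labelled gate. A further 1768 cells (24.3%) were in clusters that the markers did not name. Free RNA could reach cells of any class and litter, because the litters were loaded together, and its level was not estimated.

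Among the named classes, basophil-like cells were the leading source of chemokine transcripts. They made up 6.63% of the cells and held 33.1% of the 227534 ligand UMIs, at 14765, 17665, 24766 and 11751 CPM (UMIs of a gene scaled to a fixed total of the class's UMIs) by litter. Values of 4 litters are always given with DEX-1 first, then DEX-2, PBS-1 and PBS-2. Ligands took 17237 ± 5570 CPM of their UMIs (mean ± SD, n = 4 litters). At least 1 ligand was found in 99.8% of basophil-like cells, with a median of 4 different ligands per cell. The lowest basophil value lay above the highest value of every other named class. The sort decides how many cells of each class are present, so these shares describe the sorted cells and not the lung. The shares also depend on the naming, since the unnamed clusters held 25.3% of the ligand UMIs. Clusters with epithelial genes and high Cxcl15 were among them, so the basophil lead in share holds for the named classes only.

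Macrophage or monocyte-like cells came next by level, at 8240, 6452, 4645 and 5080 CPM (6104 ± 1619) and 5.04% of ligand UMIs. Epithelial-like cells gave 4834, 5675, 5307 and 4001 CPM (4954 ± 723) and 22.01% of ligand UMIs, and their litter range overlapped that of the macrophage class. Endothelial-like cells followed at 1275 ± 369 CPM, ILC2-like cells at 1160 ± 203, mesenchymal-like cells at 903 ± 471 and mast-like cells at 658 ± 174, each overlapping its neighbour. The mast class, with 31.8% of the cells, gave 4.53% of the ligand UMIs, and the ILC2 class, with 18.5% of the cells, gave 6.24%. B-like cells were lowest at 99.3 ± 30.3 CPM. The 31 neutrophil-like cells reached 5559 ± 1589 CPM, and the unnamed clusters held 25.3% of the ligand UMIs.

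**Figure D1:**
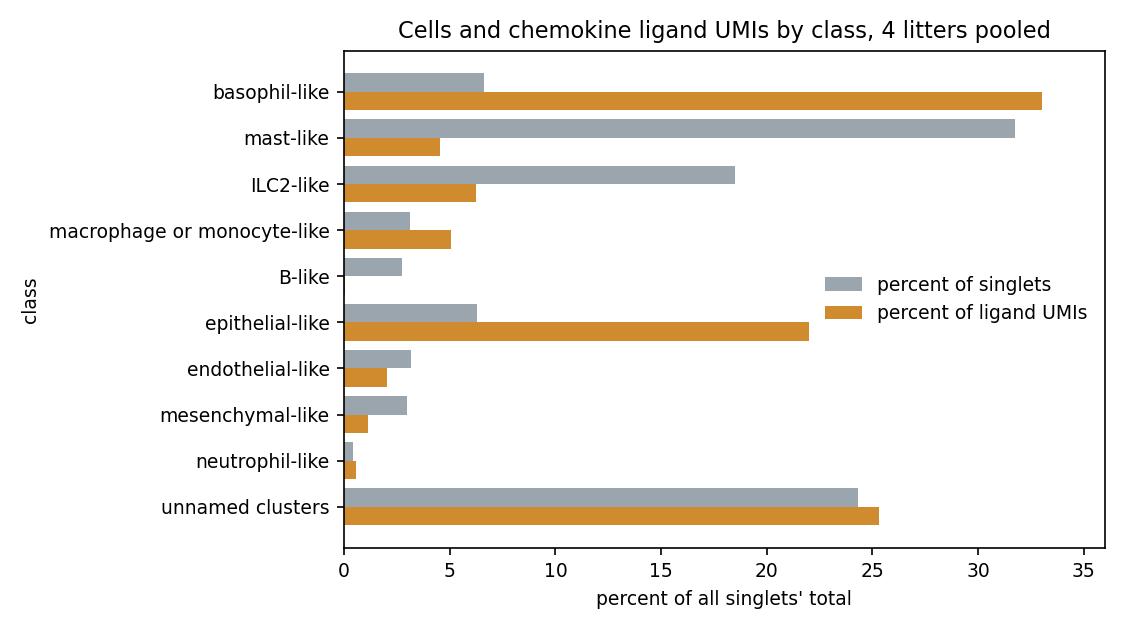
For each cell class, the share of all singlets and the share of all ligand UMIs, in percent. Basophil-like cells hold 6.63% of the cells and 33.1% of the ligand UMIs, whereas mast-like cells hold 31.8% of the cells and 4.53% of those UMIs.

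Among the 8 classes with at least 20 cells in every litter, the detected ligands divided by highest mean level into 5 basophil, 5 macrophage or monocyte, 5 epithelial, 5 mesenchymal, 4 endothelial, 3 ILC2, 2 mast and 1 B cell ligands. These levels describe classes that were clustered without the ligands and their receptors, and the differences between classes were not tested. A UMI counts a transcript once whatever its length, so levels of different genes may be set side by side. Neighbours in an order are said to overlap when their litter ranges do. Some highest classes rest on few UMIs. Of the 30 detected ligands, 26 to 28 kept theirs without 1 litter and 25 to 29 under other settings.

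**Figure D2:**
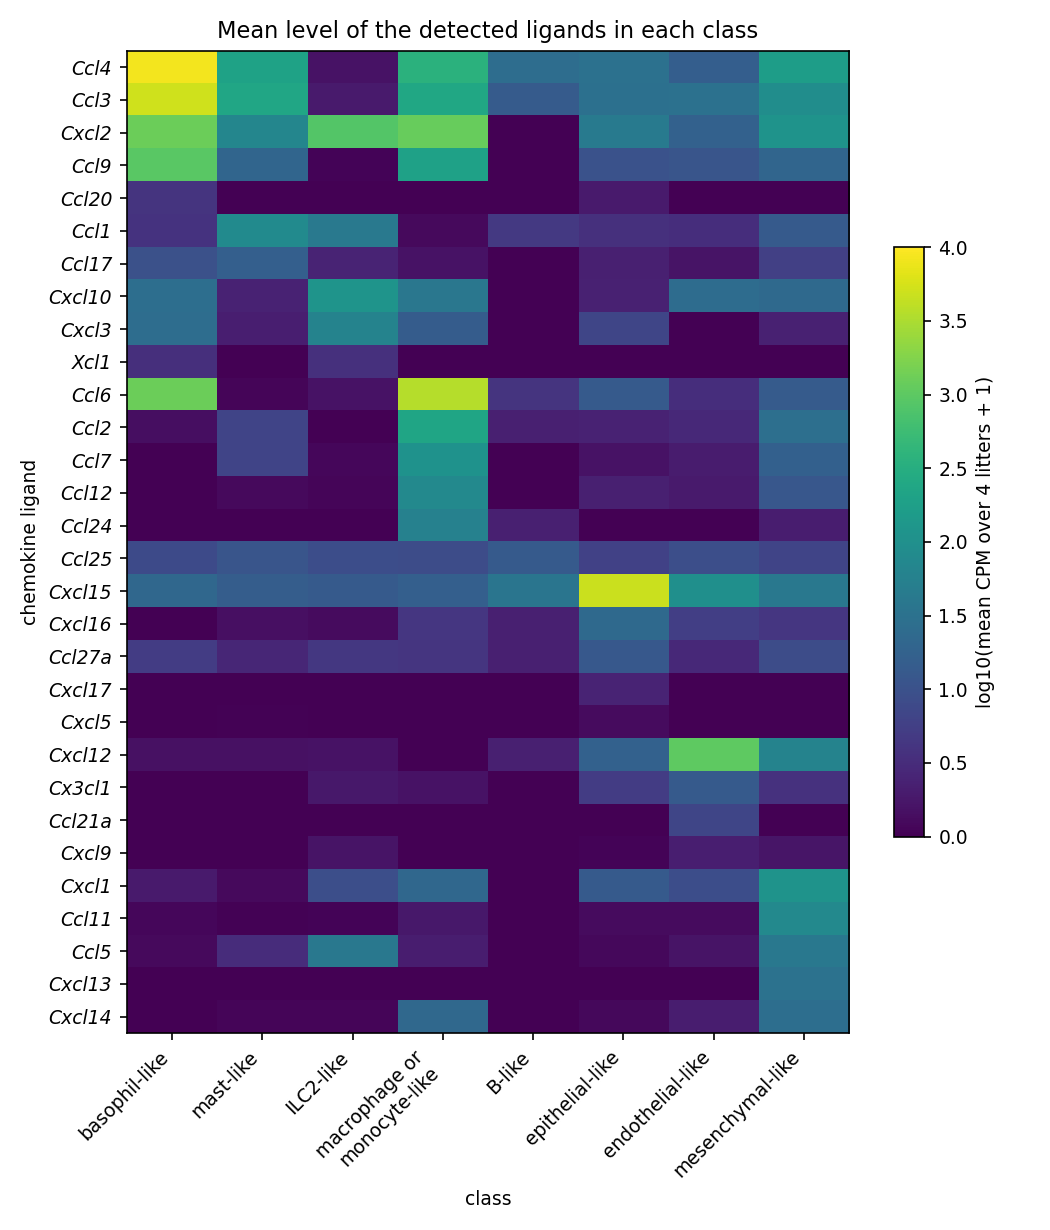
Mean level over 4 litters (log10 of CPM + 1, colour scale) of each detected ligand in 8 cell classes. Ccl3, Ccl4 and Ccl9 are highest in basophil-like, Cxcl15 in epithelial-like and Cxcl12 in endothelial-like cells, whereas B-like cells hold little of any ligand.

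Ccl3 and Ccl4 (MIP-1α and MIP-1β), which recruit monocytes and lymphocytes, were the 2 most abundant basophil ligands. Ccl4 stood at 7667, 8053, 12956 and 5797 CPM in basophil-like cells (8618 ± 3055), which held 82.2% of its UMIs. The next class, macrophage or monocyte-like, gave 203, 455, 440 and 321 CPM. Ccl3 stood at 4259, 4927, 7088 and 3943 CPM (5054 ± 1417) in basophil-like cells, with 78.5% of its UMIs, against 289, 233, 328 and 104 CPM in the macrophage class. For both ligands every basophil litter lay above every litter of the other 7 classes in the order, and PBS-1 was the highest litter.

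Ccl9, a ligand of Ccr1 that attracts myeloid cells, followed the same order. It was at 785, 1266, 1134 and 640 CPM in basophil-like cells (956 ± 293) and at 285, 134, 177 and 166 CPM in the macrophage class, without overlap. Ccl3 and Ccl9 were spread over nearly the whole basophil class, whereas Cxcl2 was not. With every cell thinned to 2000 UMIs, 95.2% of basophil-like cells had Ccl3, 83.2% Ccl4 and 82.6% Ccl9, against 43.7% with Ccl6 and 33.4% with Cxcl2. Unthinned, the shares were 98.8%, 88.6%, 96.7%, 53.3% and 41.5%, at a median of 7222.5 UMIs per cell. In B-like cells, taken as a class with little of these ligands (median 3528 UMIs), the thinned shares were 1.62% for Ccl3, 1.62% for Ccl4, 0% for Ccl9, 1.08% for Ccl6 and 0% for Cxcl2.

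Cxcl2 (MIP-2), a neutrophil attractant acting through Cxcr2, had several sources. Basophil-like cells gave 968, 1830, 1556 and 652 CPM (1252 ± 538) and the macrophage class 1727, 950, 977 and 996 (1163 ± 377), and these ranges overlapped. ILC2-like cells held the largest share of its UMIs, 38.5%, against 20.9% in basophil-like cells. The top 10% of basophil-like cells held 65.5% of the class's Cxcl2 UMIs, compared with 22.4% for Ccl3.

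The basophil class was made of 2 clusters with unequal ligand levels. The cluster of 395 cells led by Acod1, Cyp4f18 and Mcpt8 had 11320 CPM of Ccl4, 6392 of Ccl3, 1699 of Cxcl2 and 1285 of Ccl9 (cells pooled). The cluster of 87 cells led by Mpo, Mcpt8 and Ctsg, of which Mpo and Ctsg encode granule enzymes of early myeloid cells, had 4108 CPM of Ccl4, 2800 of Ccl3 and 471 of Ccl9. Ccl4 was 10542, 9724, 14732 and 8240 CPM in the first cluster and 1478, 4482, 7406 and 2739 in the second, without overlap. Ccl20, a ligand of Ccr6, was also highest in basophil-like cells, at 3.03 ± 2.81 CPM.

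Mast-like cells, though the largest class, carried Ccl3 at 215, 207, 317 and 187 CPM and Ccl4 at 215, 132, 279 and 170 CPM. After thinning, 13.5% of them had Ccl3 and 4.96% had Ccl4, above the shares in B-like cells. Ccl4 was found in 18.9% of mast-like cells with Ccl3 and in 2.79% of those without. A large part of these UMIs came from cells that also held a UMI of Mcpt8, a basophil protease: 615 of 1742 Ccl3 and Ccl4 UMIs in DEX-1, 595 of 1487 in DEX-2, 577 of 2062 in PBS-1 and 630 of 1454 in PBS-2. The part of basophil RNA in the mast cell level was not tested further. The mast clusters differed: Ccl3 was at 368 CPM in 709 cells led by Atp8a2, H19 and Fgfr1, at 178 in 800 cells led by Tpsab1, Slc6a4 and Tpsg1, and at 66.1 in 800 cells led by Mrgprb2, Mcpt4 and Cma1. Mcpt4 and Cma1 encode chymases of connective tissue mast cells.

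Ccl1, the ligand of Ccr8, was highest in mast-like cells at 84.9, 56.0, 116 and 67.8 CPM (81.3 ± 26.3), with ILC2-like cells next at 40.9 ± 18.3 and an overlap. Ccl17, a ligand of Ccr4 on type 2 T cells, was at 15.5 ± 3.62 CPM in mast-like cells.

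Macrophage or monocyte-like cells were marked by Ccl6, a ligand of Ccr1. Ccl6 was at 4267, 4423, 2276 and 3308 CPM there (3569 ± 992) and at 977, 1440, 1959 and 635 CPM in basophil-like cells, without overlap. Because basophil-like cells were more numerous, they held 42.8% of the Ccl6 UMIs against 52.9% in the macrophage class. Ccl6 was found in 87.2% of macrophage or monocyte-like cells, the top 10% of which held 78.4% of its UMIs.

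The monocyte attractants Ccl2 (MCP-1), Ccl7 and Ccl12, which act through Ccr2, were highest in the macrophage class among the 8 classes but rested on few cells. Ccl2 was at 601, 81.3, 173 and 45.4 CPM (225 ± 256), and 113 of the 133 UMIs in DEX-1 came from 1 cell. Ccl7 was at 289, 10.99, 127 and 1.11 CPM (107 ± 134), with 47 of 64 UMIs of DEX-1 in 1 cell. Mesenchymal-like cells were next for both, at 87.7, 4.06, 11.8 and 7.32 CPM of Ccl2 and 29.2, 9.46, 24.9 and 0 CPM of Ccl7, with overlap. Ccl12 was at 104, 81.3, 61.2 and 50.9 CPM (74.4 ± 23.4) in the macrophage class, above all litters of the next class, mesenchymal-like, at a mean of 11.4. Ccl24, the eosinophil attractant eotaxin-2, reached 221 CPM in DEX-1, the other litters having 0 to 5.54 CPM, and 38 of its 49 UMIs in DEX-1 lay in 1 cell.

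Neutrophil-like cells were too few to enter the order, at 3, 8, 6 and 14 per litter. Their Cxcl2 was at 5143, 2571, 1595 and 2349 CPM, above every macrophage or monocyte litter in DEX-1, DEX-2 and PBS-2. Ccl2 was at 161, 968, 230 and 96.7 CPM, Cxcl1 at 562, 72.2, 0 and 0, Ccl7 at 161, 477, 0 and 0, and Ccl12 at 321, 202, 0 and 0, the last being 4 and 14 UMIs. Each of these values rests on at most 14 cells per litter, and many on fewer. In DEX-1 every ligand named here was found in 33.3% of the 3 cells. Ccl7 and Ccl12 in DEX-2 were each in 12.5% of the 8 cells, and Ccl2 in PBS-1 in 16.7% of the 6. Cxcl2 was in 87.5%, 66.7% and 78.6% of the cells of DEX-2, PBS-1 and PBS-2.

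ILC2-like cells, the population the sort was made for, carried Cxcl2, Cxcl10, Cxcl3, Ccl1 and Ccl5. Cxcl2 was their most abundant ligand, at 991, 945, 663 and 846 CPM, and was found in 35.1% of cells after thinning. It was higher in the 923 cells led by Calca, Krt83 and Tnfrsf18 (1126 CPM) than in the 420 cells led by the cell cycle genes Birc5, Pclaf and Ube2c (598 CPM). Cxcl10, an interferon-inducible ligand of Cxcr3, was at 65.2, 207, 80.0 and 118 CPM (117 ± 63.5), with the macrophage class next at 104, 8.79, 28.4 and 6.64 and an overlap. Its UMIs were concentrated: the top 10% of ILC2-like cells held 90.5% of them. It was found in 10.0% of ILC2-like cells with Cxcl2 and in 8.32% of those without.

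Cxcl3, a second Cxcr2 ligand, was at 59.9 ± 29.3 CPM in ILC2-like cells and at 26.0 ± 16.5 in basophil-like cells, with overlap. Ccl5 (RANTES), made by cytotoxic and memory lymphocytes, was at 39.5 ± 14.5 CPM in ILC2-like cells. The mesenchymal mean of 39.7 ± 78.4 came from PBS-2, where 84 of 86 UMIs were in 1 cell. An unnamed cluster of 702 cells led by Tcrg-C1 and Cxcr6 held 37.2% of the Ccl5 UMIs. At a cluster resolution of 0.5 it joined the ILC2-like class, which then had 551, 455, 486 and 578 cells and a mean Ccl5 level of 65.5 CPM, the highest of the 8 classes. Xcl1 was at 2.53 CPM in ILC2-like and 2.51 in basophil-like cells.

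**Figure D3:**
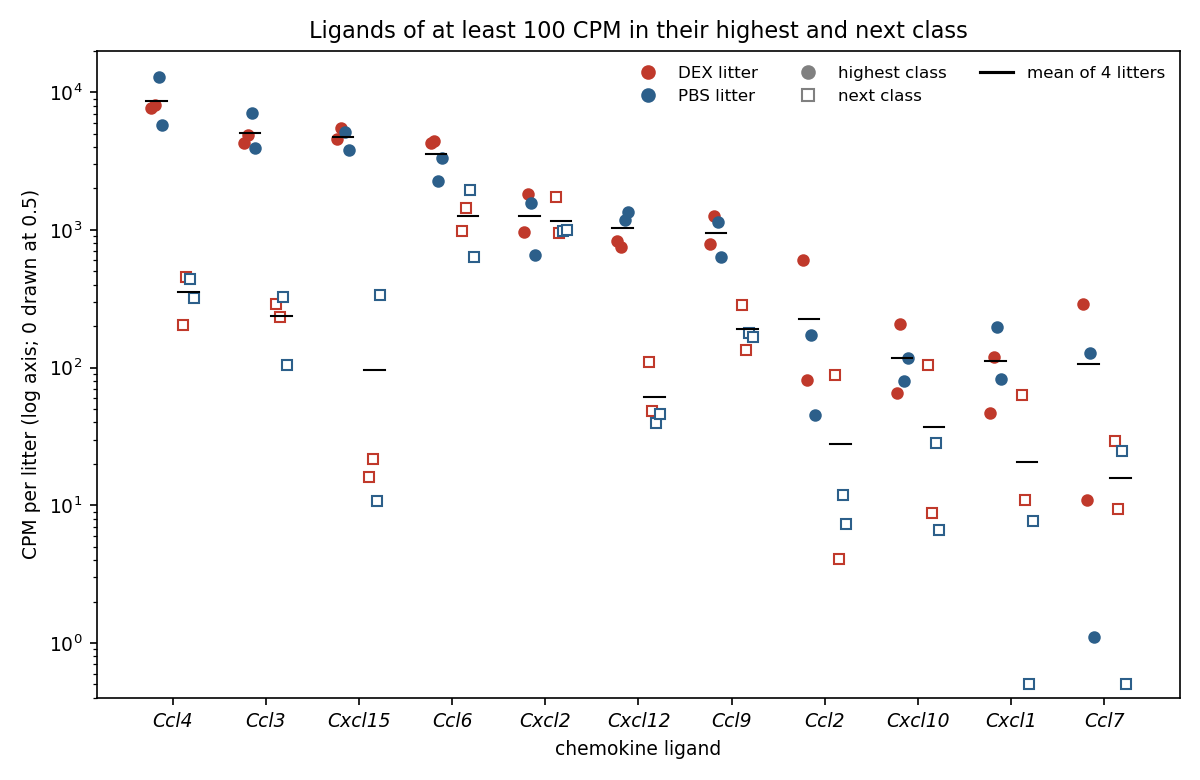
CPM (log axis) of the ligands with a mean of at least 100 CPM, in the class of their highest mean and in the next class, with 1 point per litter and values of 0 drawn at 0.5. Every litter of the highest class lies above the next class for Ccl4, Ccl3, Cxcl15, Ccl6, Cxcl12 and Ccl9, whereas the ranges of Cxcl2, Ccl2, Cxcl10, Cxcl1 and Ccl7 overlap.

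Epithelial-like cells were distinguished by Cxcl15 (lungkine), a CXC ligand known for its restriction to lung epithelium. It was at 4589, 5456, 5123 and 3785 CPM (4738 ± 729), against 16.1, 21.8, 10.8 and 335 CPM in the next class, endothelial-like. Its mean in the classes outside the epithelium ran from 12.4 to 96.0 CPM, and the endothelial PBS-2 value came with epithelial marker RNA (given with the DEX comparison). After thinning, 74.2% of epithelial-like cells had Cxcl15 and 5.95% of B-like cells did.

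Cxcl15 differed among the epithelial clusters. It was at 9097 CPM in 127 cells led by Retnla, Hc and Lyz1, at 5402 in 169 cells led by the surfactant genes Sftpc and Sftpa1, at 1219 in 52 cells led by the club cell genes Scgb3a2 and Scgb1a1, and at 331 in 109 cells led by Msln, Aqp5 and Ager, markers of flat alveolar cells. An unnamed cluster of 282 cells led by Car4 and Hopx had 3513 CPM and 41.2% of all Cxcl15 UMIs, and another of 21 cells led by Sftpa1 and Sftpb had 4721. The Car4 cluster, at a median of 34899 UMIs per cell, also had Ager and Aqp5 among its leading genes. Clusters with these flat alveolar markers therefore differed in Cxcl15. The other epithelial ligands were low. Cxcl16, a membrane-bound ligand of Cxcr6, was at 22.7 ± 7.03 CPM, above all litters of the endothelial class at 4.45. Ccl27a was at 11.6 ± 2.14, Cxcl17 at 1.53 and Cxcl5 at 0.297 CPM.

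Endothelial-like cells were the main source of Cxcl12 (SDF-1), the ligand of Cxcr4 that retains and homes progenitors. It was at 829, 752, 1181 and 1357 CPM (1030 ± 287) with 77.8% of its UMIs, against 110, 48.7, 39.3 and 45.7 in mesenchymal-like cells, without overlap. Most of it came from 15 cells. The cluster led by Gja4, Thsd7a and Tm4sf1, which also expressed the arterial genes Gja5 and Edn1, had 7771 CPM of Cxcl12, and every one of its cells carried it. The other 216 endothelial-like cells, led by Scn7a, Gpihbp1 and Cdh5, had 190 CPM. Cx3cl1 (fractalkine), the ligand of Cx3cr1, was at 12.5 ± 4.50 CPM, above all epithelial litters at 4.10. Ccl21a, a ligand of Ccr7, stood at 16 UMIs from 1 DEX-1 cell and had no UMI in any other cell assigned to a litter. Cxcl9 was at 1.15 CPM.

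Mesenchymal-like cells carried Cxcl1, Ccl11, Cxcl13 and Cxcl14. Cxcl1 (KC), a neutrophil attractant, was at 46.8, 120, 198 and 82.3 CPM (112 ± 64.8), and the macrophage class at 63.3, 10.99, 0 and 7.75 overlapped it. Ccl11, the eosinophil attractant eotaxin-1, was at 130, 36.5, 126 and 5.49 CPM, with 85.3% of its UMIs in this class and a next mean of 0.826. Cxcl13, the B cell attractant, was at 42.4, 1.35, 64.3 and 14.6 CPM and had no UMI in the other 7 classes. Cxcl14 was at 26.4 ± 10.9 CPM, overlapping 21.5 ± 11.5 in the macrophage class.

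The mesenchymal clusters split these ligands. Cxcl1 was at 261 CPM in 37 cells led by Higd1b and Postn, Cxcl12 at 395 in 32 cells led by Timp4, Gpc6 and Tagln, and Ccl2 and Ccl7 at 132 and 85.1 in 31 cells led by Agt, Nrxn3 and Enpp2.

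Ccl25 was nearly level, at class means of 4.80 to 12.6 CPM with the highest in B-like cells. The rows not detected were Ccl8, Ccl19, Ccl21b, Ccl21c, Ccl22, Ccl26, Ccl27b and Ccl28 and additional copies of Ccl19, Ccl21a and Ccl27a. The values of Ccl21a and Ccl27a are uncertain, since reads of near-identical copies could be split between rows.

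Many of the ligands lie in 3 genomic neighbourhoods (GRCm38, GENCODE M21), and in none of them were all detected members highest in the same class. On chromosome 5, 5 of them lie within chr5:90759360-90905938 in the order Cxcl5, Cxcl3, Cxcl15, Cxcl1 and Cxcl2. Cxcl3 and the epithelial Cxcl15 are 4.93 kb apart on the plus strand, and their highest classes were ILC2-like and epithelial-like. On chromosome 11, chr11:83525778-83664683 holds Ccl5, Ccl9, Ccl6, Ccl3 and Ccl4, of which 3 were highest in basophil-like cells. Ccl3 on the minus strand and Ccl4 on the plus strand are 13.2 kb apart. The interval chr11:82035571-82305690 holds Ccl2, Ccl7, Ccl11, Ccl12, Ccl8 and Ccl1, with highest classes among macrophage, mesenchymal and mast-like cells where detected.

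Cxcl1, Cxcl2 and Cxcl3 are inducible Cxcr2 ligands whose highest means lay in 3 different classes, each overlapping the next class. Cxcl15 is their epithelial neighbour, and Ccl9 and Ccl3 are basophil ligands. The promoters of these 6 ligands are therefore shown. Each is the 250 bases before the RefSeq start (GRCm38.p6), 5′ to 3′ on the gene's strand, with matches on either strand to the NF-kB motif (GGG and TTCC with any 3 bases between them) or the AP-1 motif (TGANTCA) in capitals. In order, the intervals are chr5:90890995-90891244, chr5:90903649-90903898, chr5:90785851-90786100, chr5:90794284-90794533 on the plus strand, and chr11:83578637-83578886 and chr11:83649379-83649628 on the minus strand.
Cxcl1: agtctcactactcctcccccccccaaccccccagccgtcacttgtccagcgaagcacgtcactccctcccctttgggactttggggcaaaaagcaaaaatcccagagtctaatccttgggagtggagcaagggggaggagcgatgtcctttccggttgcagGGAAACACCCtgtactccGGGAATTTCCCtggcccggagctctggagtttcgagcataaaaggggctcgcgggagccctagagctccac
Cxcl2: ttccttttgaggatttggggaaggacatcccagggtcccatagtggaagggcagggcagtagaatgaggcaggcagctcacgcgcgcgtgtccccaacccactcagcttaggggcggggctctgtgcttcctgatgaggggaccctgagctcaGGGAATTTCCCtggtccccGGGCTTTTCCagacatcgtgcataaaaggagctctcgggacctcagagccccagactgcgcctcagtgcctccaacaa
Cxcl3: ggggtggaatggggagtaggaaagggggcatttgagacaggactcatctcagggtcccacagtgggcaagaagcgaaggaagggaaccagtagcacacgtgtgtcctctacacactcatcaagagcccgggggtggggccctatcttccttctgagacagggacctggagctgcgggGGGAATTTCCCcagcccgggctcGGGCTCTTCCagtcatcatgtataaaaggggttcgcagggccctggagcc
Cxcl15: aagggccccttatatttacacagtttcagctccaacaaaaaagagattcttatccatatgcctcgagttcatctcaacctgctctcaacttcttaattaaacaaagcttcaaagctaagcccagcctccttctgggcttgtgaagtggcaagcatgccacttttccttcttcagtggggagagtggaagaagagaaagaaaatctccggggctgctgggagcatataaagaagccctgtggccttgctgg
Ccl9: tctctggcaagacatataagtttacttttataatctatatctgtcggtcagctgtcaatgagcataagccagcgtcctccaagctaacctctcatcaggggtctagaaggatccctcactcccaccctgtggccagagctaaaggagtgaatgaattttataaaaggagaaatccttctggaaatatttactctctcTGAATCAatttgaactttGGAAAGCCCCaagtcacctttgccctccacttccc
Ccl3: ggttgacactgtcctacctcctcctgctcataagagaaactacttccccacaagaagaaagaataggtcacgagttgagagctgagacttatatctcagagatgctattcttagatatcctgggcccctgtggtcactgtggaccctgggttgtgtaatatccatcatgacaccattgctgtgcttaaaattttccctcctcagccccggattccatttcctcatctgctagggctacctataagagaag

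The NF-kB motif was in Cxcl1, Cxcl2, Cxcl3 and Ccl9 and in neither Cxcl15 nor Ccl3. The matches of Cxcl1 began 89, 71 and 70 bases before the start, those of Cxcl2 at 97, 96 and 78 bases and those of Cxcl3 at 73, 72 and 50 bases, the paired positions being overlapping matches. Among the 21 detected ligands with a promoter in the table, 7 (33.3%) held it, the others being Ccl20, Cxcl10 and Ccl1, against 4.65% of all 32851 promoters. The AP-1 motif was in 3 of 21 (14.3%; Ccl27a, Cxcl10 and Ccl9) against 6.75%, and the motif AGATAA of GATA factors in 3 of 21 (Ccl27a, Cxcl10 and Ccl17) against 9.99%. The palindromic glucocorticoid receptor element (GNACA and TGTNC with any 3 bases between them) was in 0 of 21 against 0.387%. A ligand counts once if any of its promoters held a match, whereas the background counts every promoter, so the shares have unlike units. Ccl27a held its AP-1 and GATA matches in the same promoter and none in its others. A match is a description of letters in this window.

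The receptors of these ligands were placed as follows. Ccr8, the receptor of Ccl1, was highest in mast-like cells (963 ± 55.9 CPM) and ILC2-like cells (699 ± 37.6), the classes with the highest Ccl1. Ccr1, which binds Ccl3, Ccl6 and Ccl9, was at 129 ± 11.7 CPM in basophil-like and 103 ± 14.3 in macrophage or monocyte-like cells, and at 163 ± 27.5 in the 31 neutrophil-like cells. Cxcr6, the receptor of Cxcl16, was at 214 ± 18.4 CPM in ILC2-like cells and was a leading gene of the unnamed Tcrg-C1 cluster. Ackr3, a scavenger of Cxcl12, was at 228 ± 23.5 CPM in endothelial-like cells. Cxcr2, the receptor of Cxcl1, Cxcl2 and Cxcl3, was at 121 ± 32.1 CPM in neutrophil-like and 62.0 in basophil-like cells. Ccr2 was at 163 ± 59.8 CPM in basophil-like and 142 ± 35.9 in macrophage or monocyte-like cells, and Cxcr4 at 153 ± 36.9 in basophil-like cells. Cxcr1 had no UMI in any class.

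The levels of immediate-early and NF-kB response genes moved with some of the ligands. This list of 23 genes, including Fos, Egr1 and Nfkbia, is known to respond within minutes to stimulation and to tissue digestion. Basophil-like cells with Ccl3 or Ccl4 held 61.3 to 76.2 UMIs of the list per thinned cell by litter, and the 2 to 8 cells per litter without them held 16.5 to 31.0. Il6, a gene of the list, was also a leading gene of both basophil clusters, and its part in these values was not tested. Macrophage or monocyte-like cells with Cxcl2 held 16.6 to 33.8, against 9.40 to 14.2 without it. The difference was small in mast-like cells with Ccl3 or Ccl4 (57.6 to 68.6 against 51.0 to 61.9), and ILC2-like cells with Cxcl2 held 37.4 to 43.3 against 42.1 to 47.3. The part of the 40 min digestion in these levels was not tested.

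Dexamethasone is an agonist of the glucocorticoid receptor, which is known to repress many chemokine genes. DEX litters were compared with PBS litters within each class by edgeR's quasi-likelihood test on UMI sums per litter, with Benjamini-Hochberg adjustment over all genes tested. One ligand in one class passed: Cxcl3 in ILC2-like cells, which was higher in DEX litters. In the other 6 classes with ligands tested, none of the 7 to 13 tested members passed.

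In ILC2-like cells 1 of 10 tested ligands was called, beside 173 of 10005 genes (1.73%; 91 higher and 82 lower), and DESeq2 also called 1. Cxcl3 was at 71.6 and 95.6 CPM in the DEX litters and 30.8 and 41.8 in the PBS litters. The groups did not overlap, and the log2 fold change was 1.18 (SE 0.17, adjusted p = 0.00137). Of the 10 tested, 5 did not overlap between groups, against 39.7% of all tested genes.

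The share of ILC2-like cells with Cxcl3 overlapped between the groups, and the UMIs per such cell did not over the whole class. A Cxcl3 UMI was found in 33, 33, 22 and 38 ILC2-like cells (9.40%, 11.6%, 6.75% and 9.97%). The mean count per such cell was 6.82, 7.45, 3.91 and 4.13. In the larger cluster, led by Calca, it overlapped, at 4.11, 6.84, 4.31 and 2.60, and in the cycling cluster it was 10.1, 8.29, 3.33 and 7.08. The highest cell of each litter held 92, 39, 20 and 33 of 225, 246, 86 and 157 UMIs. Without that 1 cell in each litter, the log2 fold change was 1.09 (SE 0.26) and the call was lost (adjusted p = 0.0573). In the other settings tried it was at most 0.0237. Cxcl2 was in 84.8%, 72.7%, 95.5% and 81.6% of the cells with Cxcl3 and in 44.3%, 47.6%, 37.8% and 41.1% of the others.

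Other Cxcr2 ligands did not pass in ILC2-like cells. Cxcl2 gave 991 and 945 CPM against 663 and 846, a log2 fold change of 0.37 (SE 0.10, adjusted p = 0.0929). Cxcl1 gave 6.04 and 3.50 CPM against 7.17 and 16.2 (log2 fold change -1.30, adjusted p = 0.164), with 24 of its 61 UMIs in PBS-2 in 1 cell. For Cxcl10, Ccl1 and Ccl5 the groups overlapped, with log2 fold changes of 0.43, -0.39 and 0.55. In the unnamed Tcrg-C1 cluster Cxcl3 was at 52.6 and 110 CPM in DEX against 21.9 and 76.5 in PBS, with overlap. Basophil marker RNA in ILC2-like cells was 16.0 to 31.2 CPM and neutrophil marker RNA 0 to 3.50 CPM, 7 of the 10 neutrophil markers being at 0. The 11 macrophage or monocyte markers summed to 13.99 and 11.3 CPM in DEX and 8.25 and 8.51 in PBS, which separated the groups as Cxcl3 did, with Csf1r, Fcgr1 and Ms4a7 at 0, and their part in the result was not tested.

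**Figure D4:**
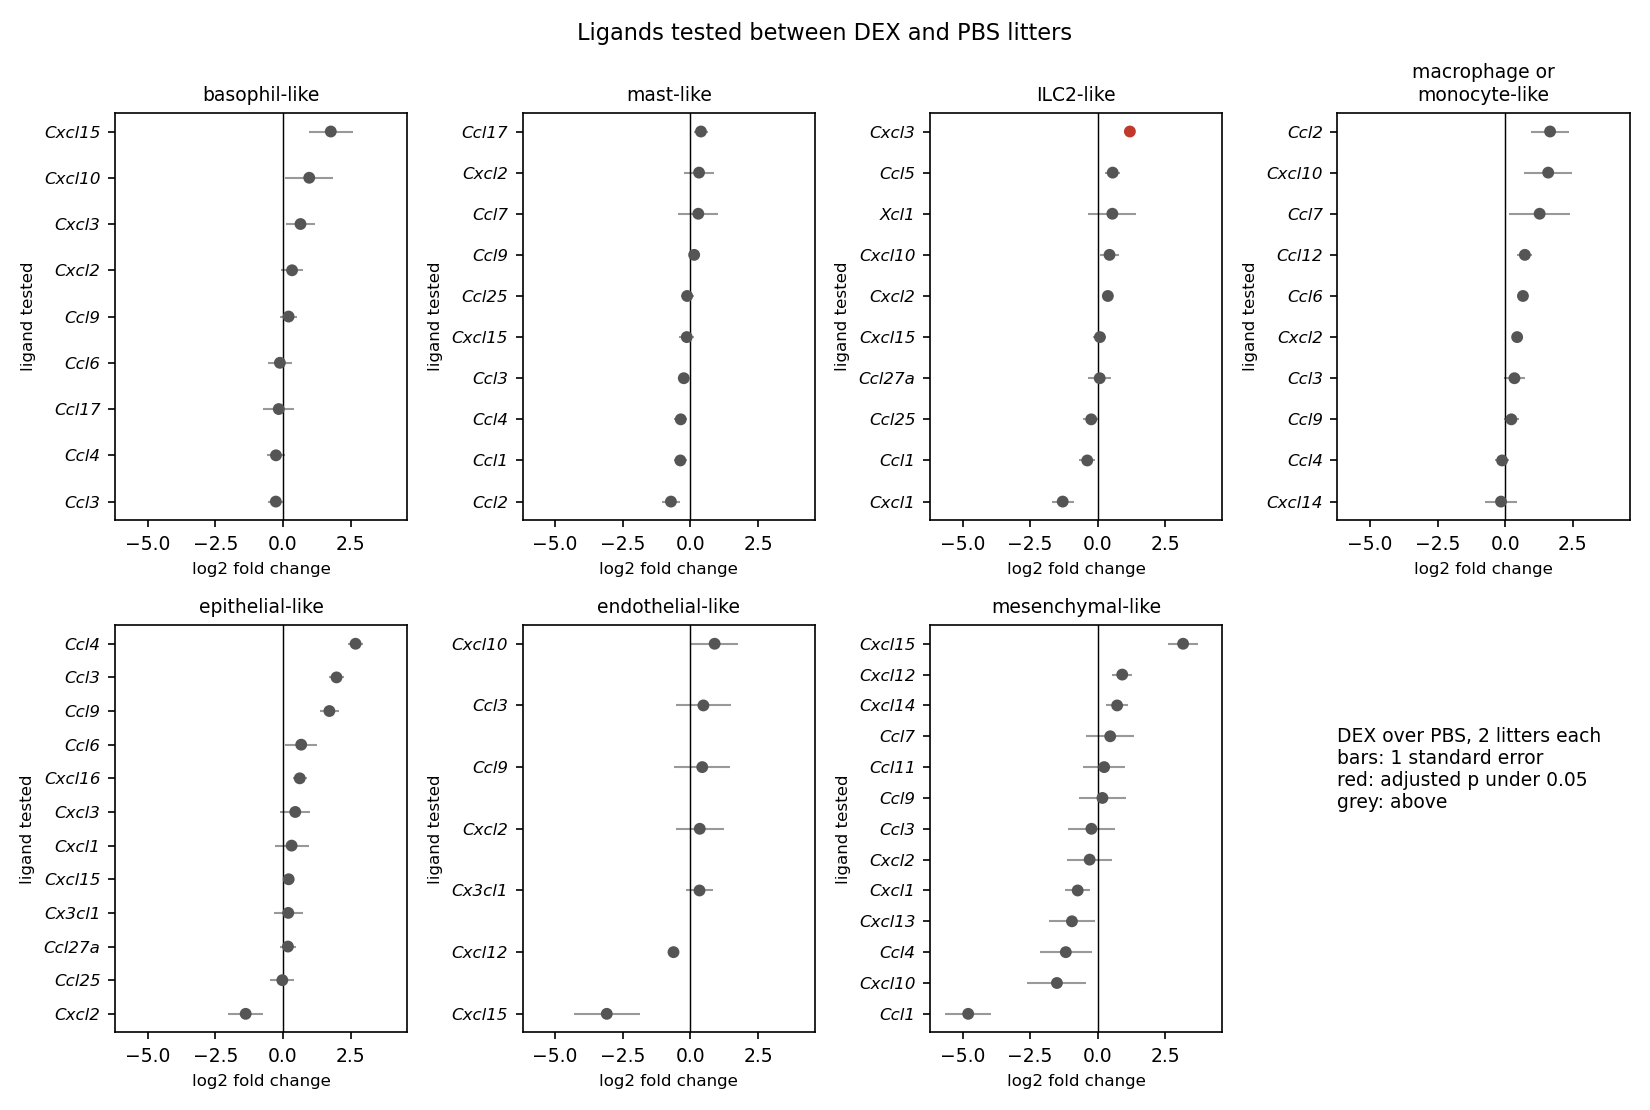
Log2 fold change, DEX against PBS, of the tested ligands in each cell class, with bars of 1 SE and the called gene marked. Cxcl3 in ILC2-like cells, at 1.18, is the 1 ligand with an adjusted p under 0.05 in edgeR's test, and the widest spread of values is in mesenchymal-like cells, from -4.79 (Ccl1) to 3.15 (Cxcl15).

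In basophil-like cells none of 9 tested ligands was called by edgeR or DESeq2, none reached an unadjusted p under 0.05, and none separated the groups (26.2% of all genes did). No gene of 7330 was called there (0.0%; 99 at an unadjusted p under 0.05). The log2 fold changes were -0.26 (SE 0.30) for Ccl3, -0.26 (SE 0.35) for Ccl4, 0.34 for Cxcl2, 0.21 for Ccl9 and -0.11 for Ccl6. PBS-1 was the highest and PBS-2 the lowest litter for Ccl3 and Ccl4, so the PBS litters enclosed the DEX litters. Cxcl15 gave 1.77 with 70 of 83 UMIs in DEX-2 in 1 cell, where epithelial marker RNA was 1964 CPM against 290 to 448 in the other litters. The part of that RNA in the difference was not tested.

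In mast-like cells none of 10 tested ligands was called by edgeR or DESeq2 or reached an unadjusted p under 0.05, beside 1 of 10511 genes (0.00951%). Ccl3 and Ccl4 gave log2 fold changes of -0.24 (SE 0.19) and -0.36 (SE 0.24), and Ccl1 -0.37. Only Ccl2 separated the groups, at 3.70 and 4.78 CPM against 8.09 and 6.14 (33.6% of all genes did). Ccl17, at 19.5 and 15.7 against 10.7 and 16.0 CPM, gave 0.39 and overlapped.

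In macrophage or monocyte-like cells none of 10 tested ligands was called by edgeR or DESeq2, with 3 at an unadjusted p under 0.05, beside 7 of 5640 genes (0.124%). Ccl6 was at 4267 and 4423 CPM in DEX and 2276 and 3308 in PBS, with a log2 fold change of 0.65 (SE 0.14, adjusted p = 0.144). Ccl12 was 104 and 81.3 against 61.2 and 50.9 (0.72, adjusted p = 0.572). These were the 2 ligands whose groups did not overlap (37.4% of all genes). Ccl2 and Ccl7 gave 1.66 and 1.27 and Cxcl2 0.44, with overlap, and the DEX-1 values of Ccl2 and Ccl7 came mostly from 1 cell each. Pf4 (Cxcl4), a chemokine with a symbol outside the rule, was called in this class, at 814 and 336 CPM against 59.0 and 44.3 (3.49, SE 0.36, adjusted p = 0.000732). Megakaryocyte markers, whose cells are a known source of Pf4, summed to 0 to 8.75 CPM, with Gp9 among those at 0. The part of megakaryocyte RNA in the Pf4 difference was not tested.

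In epithelial-like cells none of 12 tested ligands was called, with 4 at an unadjusted p under 0.05, and none of 11039 genes was (0.0%; 498 at an unadjusted p under 0.05). DESeq2 called 2 of the ligands, Ccl4 and Ccl3. Ccl4 was at 43.3 and 60.8 CPM in DEX and 8.92 and 7.88 in PBS (log2 fold change 2.68, SE 0.26, adjusted p = 0.0658, DESeq2 7.17e-07). Ccl3 was 43.3 and 49.96 against 8.49 and 15.8 (1.98, SE 0.26, adjusted p = 0.190, DESeq2 0.00219). Over 12 alternative settings the adjusted p ran from 1.62e-22 to 0.975 for Ccl4 and from 5.83e-13 to 0.979 for Ccl3.

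Most of these UMIs lay in cells with basophil RNA. A UMI of Ccl3 or Ccl4 was found in 12, 11, 3 and 8 epithelial-like cells, of which only 5, 3, 1 and 3 also held Mcpt8. Those with Mcpt8 held 177 of 190, 207 of 328, 39 of 41 and 37 of 60 of the Ccl3 and Ccl4 UMIs. The 7 basophil markers summed to 157, 247, 69.2 and 180 CPM in the class. Without the cells that held Mcpt8, Ccl3 gave 3.83 (SE 0.82, adjusted p = 0.971) and Ccl4 1.35 (SE 1.20, adjusted p = 0.975).

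Cxcl15, the main epithelial ligand, gave a log2 fold change of 0.21 (SE 0.16, adjusted p = 0.993) and its groups overlapped. Cxcl16 was at 20.9 and 33.1 against 18.3 and 18.5 CPM (0.62, SE 0.26, adjusted p = 0.993). Of the 12 tested ligands, 5 separated the groups against 33.9% of all genes.

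In endothelial-like cells none of 7 tested ligands was called by edgeR or DESeq2, with 2 at an unadjusted p under 0.05, and none of 8694 genes was (0.0%; 331 at an unadjusted p under 0.05). Cxcl12 was at 829 and 752 CPM in DEX and 1181 and 1357 in PBS (log2 fold change -0.62, SE 0.14, adjusted p = 0.998). It was the 1 ligand that separated the groups, as 33.0% of all genes did. The number of cells in the Gja4-led cluster moved with it, at 1, 2, 4 and 8 per litter, and within the other cluster Cxcl12 was at 270, 175, 146 and 193 CPM, with overlap. The part of those cells in the difference was not tested. Cxcl15 gave -3.09 (SE 1.23), resting on PBS-2 at 335 CPM. Epithelial marker RNA in the class was 7711 CPM in PBS-2 and 444 to 653 in the other litters.

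In mesenchymal-like cells none of 13 tested ligands was called, with 3 at an unadjusted p under 0.05, beside 2 of 8499 genes (0.0235%). DESeq2 called 1, Cxcl15. It was at 99.4 and 40.6 CPM in DEX and 5.25 and 10.97 in PBS (68, 30, 4 and 6 UMIs; log2 fold change 3.15, SE 0.54, adjusted p = 0.206). Epithelial marker RNA in this class was 3737 and 1937 CPM in DEX and 569 and 1008 in PBS, led by Sftpc, and its part in the difference was not tested. Ccl1 was at 0 and 1.35 CPM against 23.6 and 25.6 (adjusted p = 0.206), found in 1, 2 and 1 cells of the last 3 litters. Cxcl15 passed the filter on low counts only through the DEX litters and Ccl1 only through the PBS litters, so their tests support no difference. Cxcl12 gave 0.90 and Cxcl14 0.71, neither called. Of the 13 tested, 4 separated the groups against 34.4% of all genes.

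**Figure D5:**
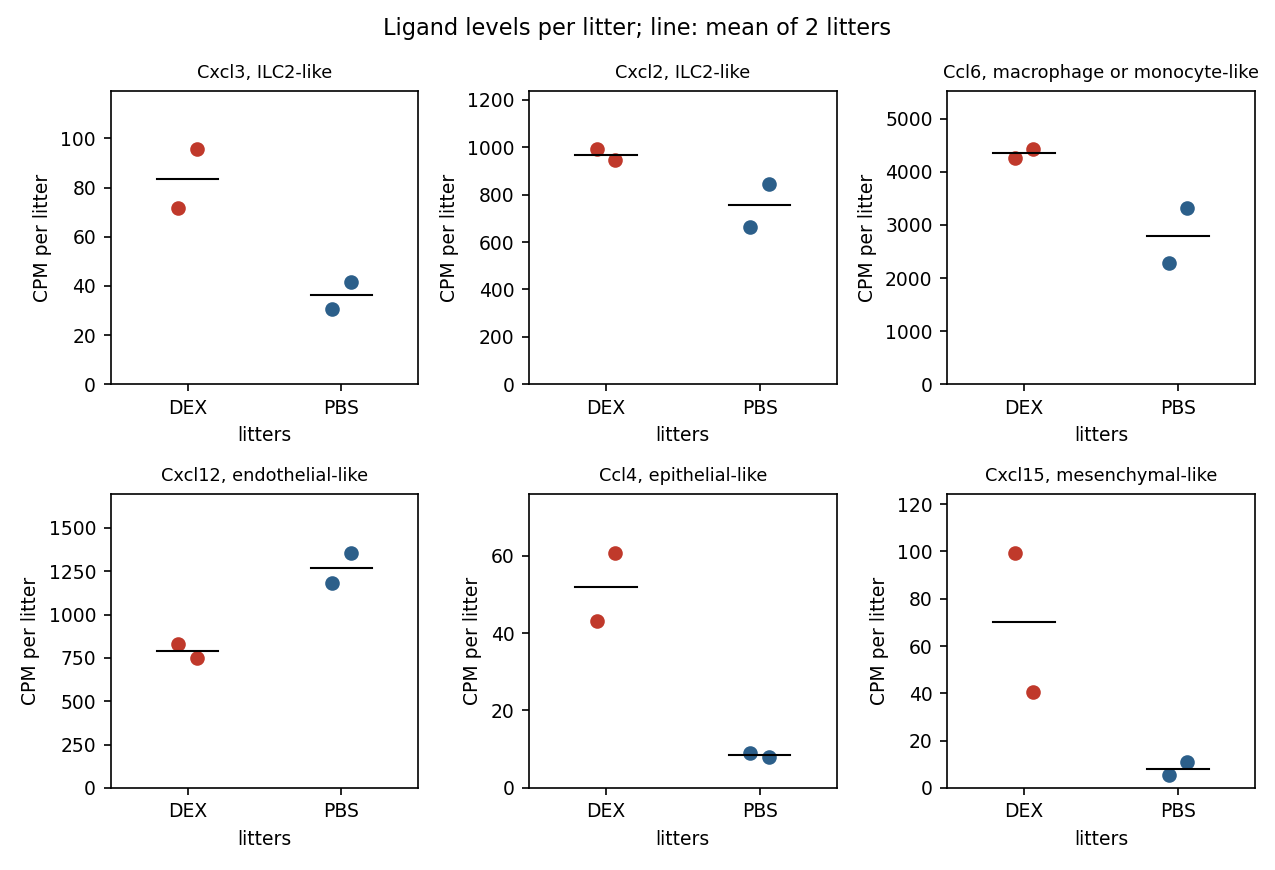
CPM per litter (linear axis) of ligands in DEX and PBS litters, 1 panel per ligand and class, with 1 point per litter and a line at the mean of the 2 litters of a group. Cxcl3 in ILC2-like cells lies at 71.6 and 95.6 in DEX against 30.8 and 41.8 in PBS. The other panels (Cxcl2 in ILC2-like, Ccl6 in macrophage or monocyte-like, Cxcl12 in endothelial-like, Ccl4 in epithelial-like and Cxcl15 in mesenchymal-like cells) also show no overlap. None of those was called by edgeR, and DESeq2 called Ccl4 in epithelial-like and Cxcl15 in mesenchymal-like cells. This Cxcl15 passed the filter on low counts only through the DEX litters, so its test supports no difference. All panels were chosen because their groups did not overlap, as was so for 33.0% to 39.7% of all tested genes in these classes.

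B-like cells had no ligand that could be tested, and 7 of 3294 genes were called there (0.213%). Neutrophil-like cells were not tested, with under 20 cells in each litter. Over the tested ligands the median log2 fold change was -0.13 in mast, 0.22 in ILC2, 0.21 in basophil, 0.39 in epithelial, 0.35 in endothelial, 0.55 in macrophage and -0.24 in mesenchymal classes, and the median of all genes lay within 0.01 of 0 in each class.

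The difference of the DEX effect between classes was tested for 3 pairs. None of 16 tested ligands was called between ILC2-like and mast-like cells beside 17 of 11339 genes (0.15%), with 3 at an unadjusted p under 0.05. Likewise none of 14 was called between ILC2-like and basophil-like cells (3 of 10097 genes, 0.0297%; 3 at an unadjusted p under 0.05), and none of 15 between mast-like and basophil-like cells (0 of 10478 genes, 0.0%; 2 at an unadjusted p under 0.05). Of these ligands, 5 (Ccl2, Ccl5, Ccl7, Ccl9 and Xcl1), 3 (Ccl1, Ccl5 and Ccl9) and 5 (Ccl1, Ccl2, Ccl6, Ccl7 and Ccl20) had no UMI in at least 1 class of a treatment group, so their tests say little. For Cxcl3 the adjusted p was 0.929 between ILC2-like and mast-like cells, so its rise is not shown to be particular to ILC2-like cells.

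Few receptors and steroid target genes passed the test. Both lists were chosen with earlier results of these data known. Their counts beside the share over all genes are therefore a description and lend no support to an enrichment. In ILC2-like cells 1 of 10 tested receptors fell: Ccrl2, an atypical receptor, at 41.3 and 38.5 CPM in DEX against 69.9 and 61.7 (log2 fold change -0.70, SE 0.13, adjusted p = 0.0121). Of 11 tested glucocorticoid receptor targets, 3 rose, where 1.73% of all tested genes were called in either direction: Errfi1 (106 and 133 against 74.6 and 58.5 CPM; 0.86, adjusted p = 0.00400), Sgk1 (47.7 and 52.9 against 31.6 and 29.5; 0.73, adjusted p = 0.0209) and Zbtb16 (65.2 and 66.1 against 47.0 and 43.1; 0.56, adjusted p = 0.0358). In B-like cells Ccr8 was at 0 and 4.91 CPM in DEX against 93.0 and 137 (adjusted p = 0.0158). These are 0 and 1 UMI against 19 and 28, and the gene passed the filter on low counts only through the PBS litters, so the test lends no support to a change. In the same cells ILC2 marker RNA was 27.9 and 24.5 against 323 and 88.2 CPM. No other gene of the receptor, target or immediate-early lists was called in the 8 classes, with 3 to 10 receptors, 4 to 12 targets and 15 to 23 immediate-early genes tested per class.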

How the data were processed

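Fetal lung cells of 4 litters were profiled in 1 pooled 5′ single-cell library with a hashtag library. The authors deposited UMI counts per gene and barcode from Cell Ranger 7 with mm10 (per the labels and processing notes). Reads were not reprocessed. Barcodes with at least 200 genes and at most 5% mitochondrial UMIs were kept and assigned to litters by HTODemux in Seurat 5.3.0 (positive quantile 0.99), which left 7268 singlets, 736 doublets and 2405 barcodes with no hashtag. The gene and hashtag libraries share their barcodes by design, and 0 barcodes were listed more than once. Same-litter doublets (3.38% expected) were not removed, because the automatic Scrublet threshold marked 0. An alternative left out the 255 singlets of highest score.

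Cells were clustered in scanpy 1.11.5 on 2000 variable genes without the ligands and receptors (20 components, 15 neighbours, Leiden resolution 1) and named "-like" from marker lists. A name needed 3 markers in 25% of cells, a mean of 30% and a next type under 70% of it, limits set after the clusters were seen. Because the names were rebuilt, differences from the study may come from them.

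UMIs were summed per class and litter and given as CPM of the class. DEX and PBS litters were compared with edgeR 4.0.16 (quasi-likelihood F-test, two-sided, TMM, filterByExpr) where each litter had at least 20 cells, with calls at an adjusted p under 0.05. The SE of a log2 fold change is its size divided by the square root of F. Folds are TMM-scaled and CPM are not. DESeq2 1.42.0, leaving out each litter, other scalings, filters, hashtag rules and cluster resolutions were alternatives, and the replicate block was another. The scripts were tested on simulated data. With n = 2 litters a group, p-values rest on a spread between litters that is moderated across all tested genes. They do not measure the spread of a gene's own litters alone. Intervals of counts would cover counting error only.

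The class of highest mean, the next class and each litter's value were given for ligands of at least 100 CPM in a named class, and other detected ligands by class. The members and the lists of markers, receptors, glucocorticoid targets and immediate-early genes were chosen with earlier results of these data known. The study's figure legend gives 1 mother per group, whereas its methods, the labels and the hashtags give 2, which were followed. Gene positions are from GENCODE M21 on GRCm38 and promoters from RefSeq (GRCm38.p6), with 21 of 30 detected ligands matched.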

Additional observations from a re-analysis of the deposited data

Results flagged for a closer look

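Of 22 ligand and class groups of 4 litters that were checked, 4 had 1 litter far from the others, by the gap to its nearest neighbour over the whole range (Dixon's ratio for 4 samples). Chance alone marks about 1 in 20 such groups. Cxcl15 in endothelial-like cells was at 335 CPM in PBS-2 and 10.8 to 21.8 in the others, a ratio of 0.966. Cxcl2 in macrophage or monocyte-like cells was at 1727 CPM in DEX-1 and 950 to 996 in the others, a ratio of 0.940. Ccl2 in mesenchymal-like cells was at 87.7 CPM in DEX-1 and 4.06 to 11.8 in the others, a ratio of 0.907. Cxcl12 in mesenchymal-like cells was at 110 CPM in DEX-1 and 39.3 to 48.7 in the others, a ratio of 0.867.

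The 2405 barcodes with no hashtag entered no comparison, and 9 of the 30 detected ligands were at least 2-fold higher there than in the cells with a litter. Cxcl15 stood at 3401 against 1088 CPM, Cxcl1 at 38.5 against 11.1, Cxcl16 at 17.7 against 5.95 and Ccl11 at 14.7 against 3.06. Cxcl13 stood at 13.4 against 1.41 CPM, Cxcl14 at 13.3 against 1.85, Ccl27a at 10.2 against 4.74, Cx3cl1 at 4.57 against 1.97 and Cxcl17 at 0.711 against 0.243. Cxcl2 and Ccl4 were lower there, Cxcl2 at 8.08 against 333 CPM and Ccl4 at 40.8 against 552. By the same clusters, 791 of these barcodes (32.9%) were epithelial-like, 643 (26.7%) mesenchymal-like and 475 (19.8%) endothelial-like, whereas 5 were ILC2-like, 17 basophil-like and 28 mast-like.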

How the results depend on the processing

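Over the fold changes and mean levels of the named ligands, 334 alternative values were counted as unchanged in sign, call or level. A further 48 passed where the main value did not, 1 lost its call, 22 changed sign and 1 moved (Cxcl1 in mesenchymal-like cells, up to 178 CPM). The 334 include mean levels, which have no sign, so every change of sign was among the fold changes. Cxcl3 in ILC2-like cells kept its call without each litter and under the other scaling, filter, tool, block, hashtag, doublet and resolution settings, with log2 fold changes of 0.96 to 1.44 and adjusted p up to 0.0237. It lost the call in an alternative chosen after seeing the data, without the cell of most Cxcl3 UMIs per litter.

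Ligands called, from 1 in ILC2-like cells and 0 in the other classes, became with no filter on low counts 5 in ILC2-like, 1 in mast-like, 1 in basophil-like, 6 in epithelial-like, 5 in macrophage, 6 in mesenchymal-like and 1 in B-like cells, and 1 for the difference between ILC2-like and mast-like cells. Under DESeq2 they were 2 in epithelial-like and 1 in mesenchymal-like cells, under the ratio rule for hashtags 2 in epithelial-like, and without the highest Cxcl3 cells 0 in ILC2-like. Leaving out 1 litter gave 0 to 1 in mast-like, 2 to 4 in ILC2-like, 0 to 1 in basophil-like, 2 to 4 in epithelial-like, 0 to 2 in endothelial-like, 2 to 9 in macrophage and 2 to 10 in mesenchymal-like cells. The extremes were macrophage cells without DEX-2 (9) and mesenchymal-like cells without PBS-1 (10). The lone litter of an arm is then assumed to vary like the others. The mothers' numbers are only names, so the replicate block was not a paired design. With it, 2 ligands in ILC2-like, 2 in endothelial-like, 3 in macrophage and 2 in mesenchymal-like cells were called, Ccl6 in basophil-like cells gave 0.10, and called genes went from 1 to 155 in mast-like, 173 to 269 in ILC2-like, 0 to 96 in endothelial-like, 7 to 38 in macrophage, 2 to 58 in mesenchymal-like and 7 to 30 in B-like cells.

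Over all alternatives, called genes ranged from 0 to 155 in mast-like, 83 to 375 in ILC2-like, 0 to 22 in basophil-like, 0 to 108 in epithelial-like, 0 to 96 in endothelial-like, 1 to 129 in macrophage, 0 to 196 in mesenchymal-like and 4 to 91 in B-like cells, and were 14 to 72, 5 to 22 and 0 to 17 for the 3 differences between classes. Signs changed without 1 litter for ligands that were not called. The log2 fold changes ranged from -0.65 to 0.28 (Ccl3), -0.75 to 0.50 (Ccl4), -0.21 to 1.16 (Cxcl2), -0.72 to 0.99 (Ccl6) and -0.19 to 0.74 (Ccl9) in basophil-like cells, and from -0.56 to 0.16 (Ccl3), -0.75 to 0.023 (Ccl4) and -0.70 to 0.046 (Ccl1) in mast-like cells. They ranged from -0.62 to 1.08 (Cxcl10), -0.85 to 0.46 (Ccl1) and -0.046 to 1.36 (Ccl5) in ILC2-like, from -0.052 to 0.81 (Cxcl2) and -0.29 to 2.79 (Ccl2) in macrophage, and for Cxcl15 from -0.012 to 0.48 in epithelial-like and -4.03 to 0.86 in endothelial-like cells. Without the highest Scrublet scores Ccl3 in epithelial-like cells gave -0.31, and under the ratio rule Cxcl15 gave -0.030 in epithelial-like and -1.17 in mesenchymal-like cells. The causes were not tested.

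Of the 30 ligands, 26 to 28 kept their highest class without 1 litter and 25 to 29 under the other settings. Among those of at least 100 CPM in the 8 classes, only Cxcl2 moved, to the macrophage class at 1234 CPM without DEX-2 and 1224 CPM without PBS-1. Depth limits the rare classes most: 3 UMIs over the class are 0.188 CPM in mast-like cells and 12.2 CPM in neutrophil-like cells.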
